A study of Caenorhabditis elegans with 2 samples.

Results

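Translation factors are the proteins that load ribosomes onto messenger RNA and drive them along it. The genes described here are the 37 protein-coding genes of Caenorhabditis elegans, of 19973 in the annotation, whose names start with eif, ife or ifg (31 initiation factor genes) or with eef (6 elongation factor genes), each prefix followed by a number. They were chosen by gene name, and the set was put together with binding values of these data already known, so the distances and signals that follow are a description and carry no test. Binding was that of RNT-1, the RUNX-type transcription factor of the worm, read out by ChIP-seq, in which DNA pulled down with an antibody against green fluorescent protein is sequenced.

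The 2 samples were biological replicates of 1 group: whole hermaphrodites of strain OP462, genotype unc-119(tm4063) III; wgIs462, which carry rnt-1 fused at its C terminus to GFP-FLAG. Both came from this 1 transgenic line, so the unc-119 allele and the insertion are shared, and the labels do not give the promoter of the transgene. The animals were L1 larvae, 6 h after synchronization as starved L1 that followed bleaching, and the values are an average over all tissues. No second condition was sampled and no control library was analysed here, so the comparisons are between genes and between replicates. The authors' peak list, set with the irreproducible discovery rate (IDR), held 5560 regions with signals from 71.6 to 3588. It was identical to the 5560 strongest of the 30000 candidate regions called on the pooled replicates. Read depth is unknown because no read counts were used, and the labels state no scale for the signal, which is the authors' own value per region. The replicates' own candidate lists give the spread. The rnt-1 gene itself had 0 candidate regions within 2 kb of a start, and the nearest lay 27820 bp away. All positions are on the ce11 assembly.

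In animals, eIF2 brings the initiator transfer RNA to the small ribosomal subunit, eIF2B recharges eIF2 with GTP, and eIF3 is the large scaffold on which the initiation complex is built. The eIF4E proteins bind the cap of the messenger RNA, and eIF4G bridges them to the ribosome. During elongation eEF1A delivers each aminoacyl-transfer RNA, the eEF1B complex reloads eEF1A with GTP, and eEF2 moves the ribosome on by a codon. Translation is needed in nearly all cells and for larval growth, while the worm uses the eIF4E genes in different tissues.

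The stretches of genome under the summits of 7 factor gene peaks are shown because they include the strongest peak of each group and show how the sequences of strong peaks differ, with the weak peak of eif-3.G for contrast. Each is read on the strand of the factor gene, from the genome of the same build, up to 50 bp on either side of the summit and ending before any annotated exon. Capitals mark TGNGGT, a loose form of the RUNX-type motif in which N is any base, or its reverse complement ACCNCA. The peaks are those upstream of eif-3.B (chrII:14795128-14795228, plus strand), eif-2Bgamma (chrII:6968563-6968662, minus strand), eif-3.D (chrIII:8971784-8971884, minus strand), eif-3.G (chrII:8442385-8442485, plus strand), eef-1A.2 (chrX:7823260-7823360, plus strand), eef-1A.1 (chrIII:6972086-6972157, minus strand) and eef-1G (chrV:10965638-10965718, plus strand).
eif-3.B: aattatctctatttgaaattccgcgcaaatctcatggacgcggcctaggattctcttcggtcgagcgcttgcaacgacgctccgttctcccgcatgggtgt
eif-2Bgamma: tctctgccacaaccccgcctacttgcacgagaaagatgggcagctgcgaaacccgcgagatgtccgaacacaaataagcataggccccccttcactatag
eif-3.D: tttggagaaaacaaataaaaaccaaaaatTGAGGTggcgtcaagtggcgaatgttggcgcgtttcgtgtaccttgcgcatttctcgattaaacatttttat
eif-3.G: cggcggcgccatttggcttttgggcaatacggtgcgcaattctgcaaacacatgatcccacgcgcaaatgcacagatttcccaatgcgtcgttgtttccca
eef-1A.2: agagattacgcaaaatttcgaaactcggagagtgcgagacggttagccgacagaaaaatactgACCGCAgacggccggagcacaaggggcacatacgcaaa
eef-1A.1: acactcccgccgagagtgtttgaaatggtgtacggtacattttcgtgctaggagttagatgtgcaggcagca
eef-1G: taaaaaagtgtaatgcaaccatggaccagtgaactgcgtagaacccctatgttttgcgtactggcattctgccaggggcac
Only eif-3.D and eef-1A.2 of these 7 hold this loose motif, and the strongest peak of the set, at eif-3.B, does not. The match reads TGAGGT at eif-3.D and ACCGCA at eef-1A.2, and neither window holds the stricter TGTGGT. The match is a statement about letters in these windows and not about where the protein touched DNA.

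Most of the translation factor genes had an RNT-1 peak close to a start. With a gene called bound where a peak summit lay within 2 kb of any of its transcript starts, 24 of the 37 genes were bound (64.9%, with a 95% Clopper-Pearson interval of 47.5 to 79.8% that covers counting error alone), beside 25.4% of all protein-coding genes. Of the initiation factor genes 19 of 31 were bound (61.3%, 42.2 to 78.2%), and of the elongation factor genes 5 of 6 (83.3%, 35.9 to 99.6%). The 2 intervals overlap, and the difference between the shares of initiation and elongation factor genes bound was not tested. With 6 elongation factor genes it is not resolved. When each summit was given to its nearest start alone, 10 initiation and 5 elongation factor genes were bound, 15 of 37 in all (40.5%), beside 17.2% of all protein-coding genes. Among these, eef-1A.1 counted only through a weak peak in its coding sequence, since its strong upstream peak lay nearer to rfc-4.

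**Figure D1:**
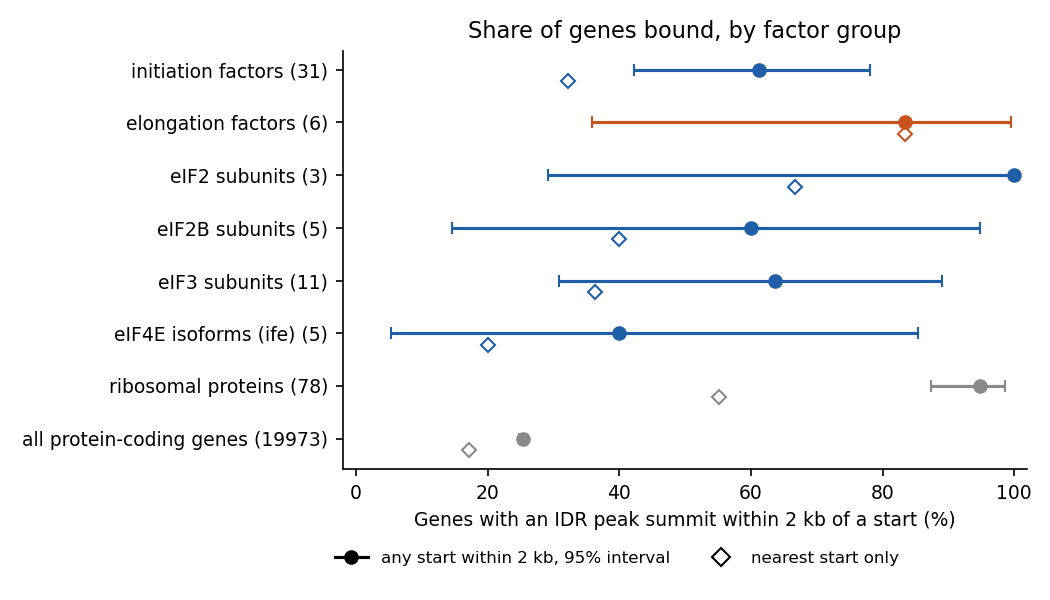
Share of genes with an IDR peak summit within 2 kb of a start, in percent, by group, with the number of genes in brackets; filled points count any start and carry exact 95% intervals, open diamonds count the nearest start alone. Initiation factors stood at 61.3% and elongation factors at 83.3%, both above the 25.4% of all protein-coding genes, and every group but the elongation factors had fewer genes bound by the nearest-start rule.

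The peaks of the elongation factor genes were the stronger ones as a group. The strongest peak of a bound initiation factor gene had a median signal of 238, with a range from 114.8 to 1799. For the bound elongation factor genes the median was 979 and the range only 821 to 1019.9. The initiation median was 0.243 times the elongation median. Across all 5066 bound protein-coding genes the median was 234.7, so the median of the initiation factor genes stood close to the middle of that distribution. Of the initiation factor genes 4 reached the weakest of the elongation values (eif-3.B, eif-3.C, eif-3.E and eif-6), and 15 did not. The value for eif-6 is that of a peak 1999 bp upstream, nearer to the start of tba-2.

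The replicate values at these same peaks had the same order. The peaks were picked on the pooled replicates, so this order is no separate support. In replicate 1 the median was 137 for initiation and 523 for elongation factor genes, and in replicate 2 it was 109.8 and 465. The elongation values ran from 393 to 572 in replicate 1 and from 442 to 485 in replicate 2. Of the initiation factor genes, 4 reached the lowest elongation value in replicate 1 and 2 in replicate 2. Among the 1112 strongest peaks of the list, signal 359 and above, was a peak of 7 of 31 initiation and 5 of 6 elongation factor genes, 12 of 37 in all (32.4%), beside 8.08% of all protein-coding genes. With bound genes alone as the base, these were 36.8% of the initiation and 100% of the elongation factor genes, beside 31.9% of all bound genes.

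**Figure D2:**
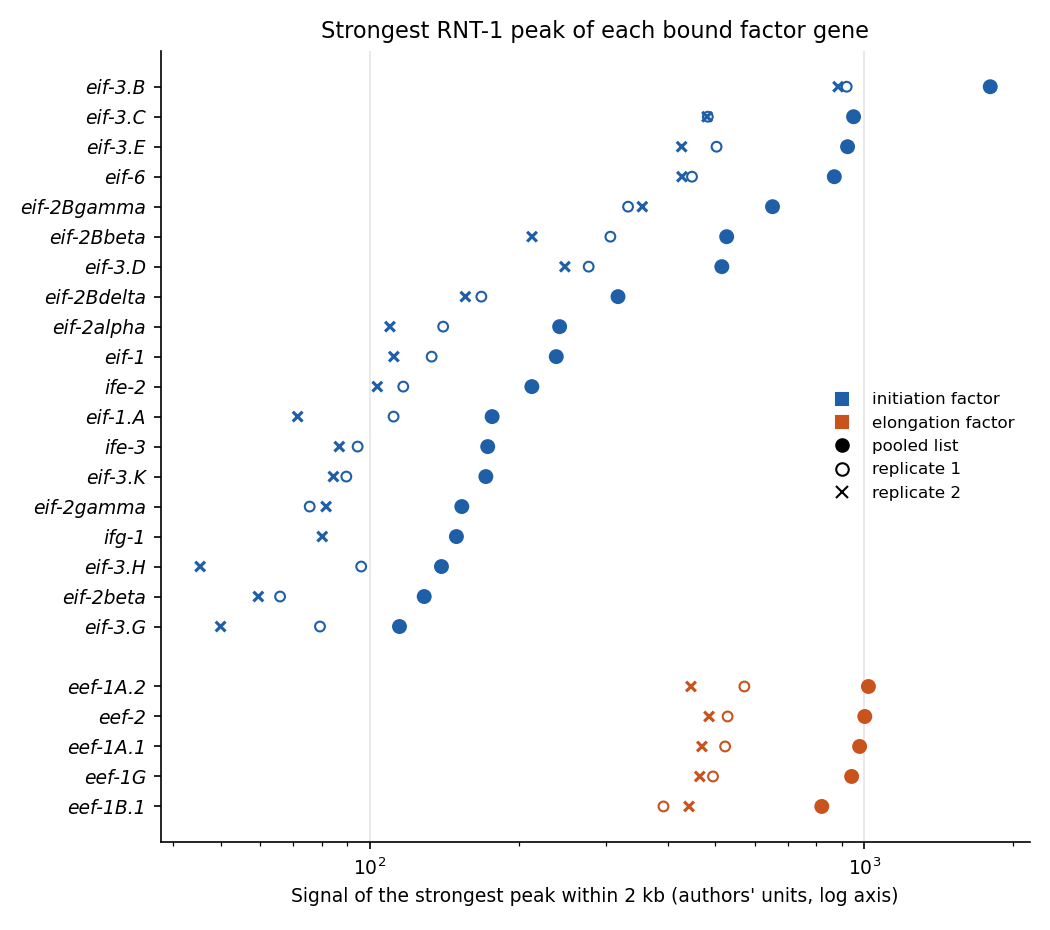
Signal of the strongest peak within 2 kb of each bound factor gene, in the authors' units on a log axis; filled points are the pooled list, open circles replicate 1 and crosses replicate 2, with initiation factors above and elongation factors below. Initiation factors spread from 114.8 to 1799 in the pooled list, while the 5 elongation factors lie between 821 and 1019.9.

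**Figure D3:**
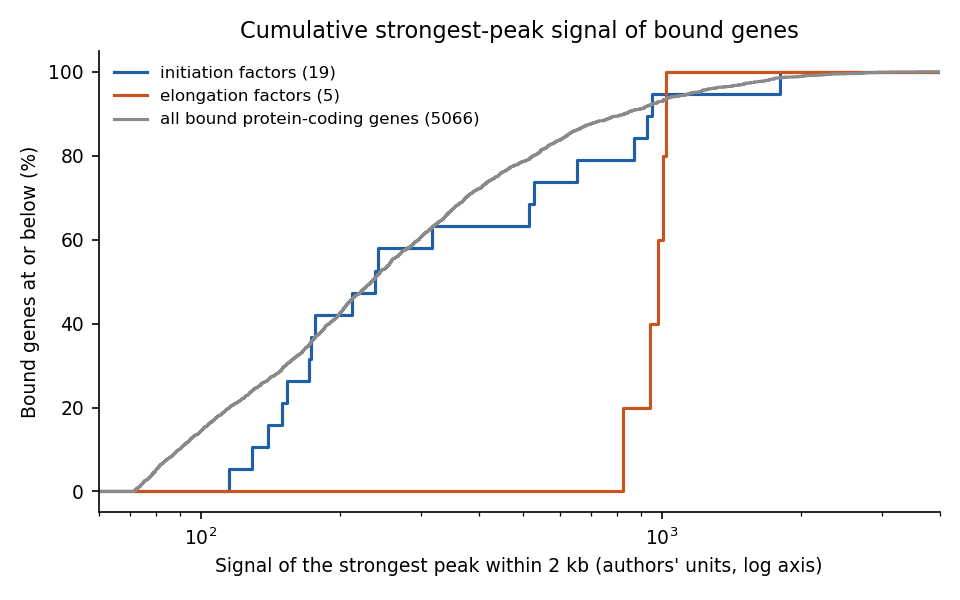
Cumulative share of bound genes, in percent, against the signal of their strongest peak on a log axis, for 19 initiation factors, 5 elongation factors and all 5066 bound protein-coding genes. The lines for initiation factors and for all bound genes have close medians (238 and 234.7). They differ at the low end, where the first starts at 114.8 and the second at 71.6. The line for elongation factors rises between 821 and 1019.9.

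The bound genes of the factors that select the start codon had peaks between 129 and 242, on either side of the median of 174 over the whole peak list. The small factor genes eif-1 and eif-1.A, whose products keep the scanning ribosome open, had 238 (133 in replicate 1, 112 in replicate 2) and 177 (112 and 71.4). All 3 subunit genes of eIF2 were bound. The alpha subunit, which stress kinases phosphorylate, had its peak at 242 (141 and 109.8), eif-2gamma, the GTP-binding subunit, at 153 (75.5 and 81.5), and eif-2beta at 129 (65.8 and 59.5). None of the 3 had a peak among the 1112 strongest, beside 8.08% of all protein-coding genes, a difference that 3 genes cannot resolve. The peak near eif-2alpha lay 1788 bp upstream of its start and 285 bp upstream of the start of Y37E3.8, and the ribosomal stalk gene rla-1 and the prohibitin gene phb-1 also start within 2 kb of it. The peak of eif-2beta sat in an intron of the gene, 212 bp upstream of an internal start. No peak was found at eif-2A and eif-2D, which in other animals encode alternative carriers of transfer RNA. Their best candidates below the threshold had 49.6 and 52.4, where the threshold lay at 71.6.

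The eIF2B genes were divided. The gamma subunit gene had 652 (333 and 356; mean 344 ± 16.2, SD, n = 2), at chrII:6968477-6968706, 964 bp upstream of the start and within an intron of the neighbouring gene C15F1.5. A second and weak peak stood closer, 153 bp upstream, with 84.0 (28.7 and 59.7). For eif-2Bbeta the signal was 527 (307 and 213), at a summit that lay between its start, 152 bp away, and that of Y47H9C.8, 52 bp away. The delta subunit gene had 318 (168 and 156) at 25 bp upstream, with no other start within 2 kb. The remaining subunit genes were unbound: eif-2Balpha had no candidate region at all within 2 kb, and eif-2Bepsilon had a best candidate of 58.7.

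The eIF3 genes spanned the whole range of the set, from its strongest to its weakest bound member. At the top was eif-3.B, a core subunit, with 1799 (922 and 886; mean 904 ± 25.5, SD, n = 2), rank 46 of the 5560 peaks, at chrII:14795065-14795278, 226 bp upstream and with no other protein-coding start within 2 kb. Next came eif-3.C, also of the core, with 952 (483 and 481; 482 ± 1.16) at 230 bp upstream, and eif-3.E with 925 (503 and 427; 465 ± 53.3) at 192 bp upstream. In each of the 3 the strong peak lay 192 to 230 bp from the start, nearer to it than to any other.

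The other eIF3 subunit genes had lower values. The cap-contacting subunit gene eif-3.D had 515 (277 and 248), 256 bp upstream and 58 bp from the start of R08D7.4 on the other side. Weaker peaks were found at eif-3.K (172; 89.6 and 84.4), eif-3.H (140; 96.0 and 45.3) and eif-3.G (114.8; 79.2 and 49.9). The summit of eif-3.K was nearer to pqn-68. That of eif-3.H, 248 bp upstream, was nearer to C41D11.3, whose start lay 122 bp away. No peak was found at eif-3.F, eif-3.I, eif-3.J and eif-3.L. The first had a best candidate of 33.1 and the last of 34.8, and eif-3.I and eif-3.J had no candidate region within 2 kb. In all, 7 of the 11 named eif-3 genes were bound (63.6%, 95% Clopper-Pearson interval 30.8 to 89.1%), beside 25.4% of all protein-coding genes. By the nearest start it was 4 of 11 (36.4%), beside 17.2% of all protein-coding genes. A peak among the 1112 strongest peaks was found at 4 of the 11 (36.4%), beside 8.08% of all protein-coding genes. These differences were not tested. The eIF3a gene egl-45 and the eIF3m gene cif-1 were added after the values of the named subunits had been seen. At egl-45 there was no peak, and cif-1 had 294 (177 and 116) at 1878 bp upstream.

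Of the eIF4E genes 2 of 5 were bound (40.0%, 95% Clopper-Pearson interval 5.27 to 85.3%), beside the 25.4% of all protein-coding genes, a difference that 5 genes cannot resolve. Of the genes for eIF4E, which the worm uses in different tissues, ife-2 had 213 (117 and 103) at 168 bp upstream with no other start nearby, and ife-3 had 173 (94.4 and 86.7) at 456 bp upstream, at chrV:8176-8391, and 455 bp downstream of the start of B0348.10. Genes ife-1, ife-4 and ife-5 had no peak: the best candidates were 45.1 and 56.7 at the first pair, and ife-5 had none. The eIF4G gene ifg-1, whose 5 annotated starts spread along the gene, had 149.6, with 80.1 in replicate 2 and no region at the summit in replicate 1. The summit lay in the 5' UTR of M110.3, so ifg-1 was not bound by the nearest-start rule.

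The remaining names reach beyond initiation. Close to eif-6, whose product keeps the ribosomal subunits apart, a strong peak of 870.0 (448 and 428) lay 1999 bp upstream, at the edge of the 2 kb window, and 152 bp upstream of the alpha-tubulin gene tba-2. A nearer peak, 345 bp upstream of eif-6 and 321 bp upstream of the proteasome gene pbs-2, had 116.9 (103 in replicate 1 and 18.6 in replicate 2), the largest relative difference between replicates in the set. The helicase gene eif-4A3, whose product in animals is a part of the exon junction complex and not of the initiation machinery, was unbound and had no candidate within 2 kb. The nearest peak to it, of 256, lay 2050 bp away.

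All but a single elongation factor gene had a strong peak, with values from 821 to 1019.9. The eEF1A genes stood at 1019.9 for eef-1A.2 (572 and 446; mean 509 ± 89.1, SD, n = 2) and 979 for eef-1A.1 (523 and 470; 496 ± 37.9). The translocase gene eef-2 had 1003 (529 and 485; 507 ± 30.9). In the eEF1B complex, eef-1G had 943 (494 and 465; 480 ± 20.8) and eef-1B.1 821 (393 and 442; 417 ± 35.1). The 5 lay at ranks 180 to 284 of 5560. Lowest in both replicates was eef-1B.1, with 393 beside a next value of 494 in replicate 1, and 442 beside 446 in replicate 2. The order of the others changed between replicates: the value of eef-1A.2 was highest in replicate 1 and in replicate 2 lay above eef-1B.1 alone. These differences were not tested.

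The exception was eef-1B.2, the second gene for the exchange subunit. It had no peak within 2 kb and a best candidate of 36.3, at 762 bp into the gene. A peak of 479 lay 2380 bp downstream of its start, beyond the end of the gene.

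Both eEF1A genes also had weak peaks inside the coding sequence, the only summits of the set downstream of the nearest start of their own gene. At eef-1A.1 they stood at 755 and 1370 bp, with 79.1 (35.8 in replicate 1, 44.7 in replicate 2) and 73.2 (29.8 and 38.5), and at eef-1A.2 at 1187 bp, with 77.6 (20.2 and 45.7). Each was higher in replicate 2. The coding sequences of the pair have the same length, 1389 bp, and differ at 84 positions, an identity of 94.0%. Of all words of 36 bases in these 3 regions, 9.94%, 12.2% and 2.21% also occurred elsewhere in the genome. The upstream peaks of both genes had 0 such words, and so had 28 of the 32 peaks near factor genes. The labels do not say how reads that map to several places were treated, and the part of repeated sequence in these weak peaks was not tested.

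The strongest peak lay upstream of the start in each of the 24 bound genes, against 80.8% of all bound protein-coding genes. For eif-2beta this holds for its internal start alone. In 19 of the 24 it was upstream and within 500 bp (79.2%), against 45.8% of all bound genes. The median distance was 256 bp for initiation and 31 bp for elongation factor genes, and 470 bp for all bound genes. The elongation distances fell into separate sets: eef-1B.1, eef-2 and eef-1G had summits 6, 13 and 31 bp from the start, and eef-1A.2 and eef-1A.1 had them 344 and 395 bp away. At the far side of the window were eif-3.K at 1520 bp, eif-2alpha at 1788 bp and eif-6 at 1999 bp. Just outside it, and so counted as unbound, were eif-4A3 at 2050 bp, ife-1 at 2345 bp (101.3), eef-1B.2 at 2380 bp and eif-2D at 2564 bp (106).

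**Figure D4:**
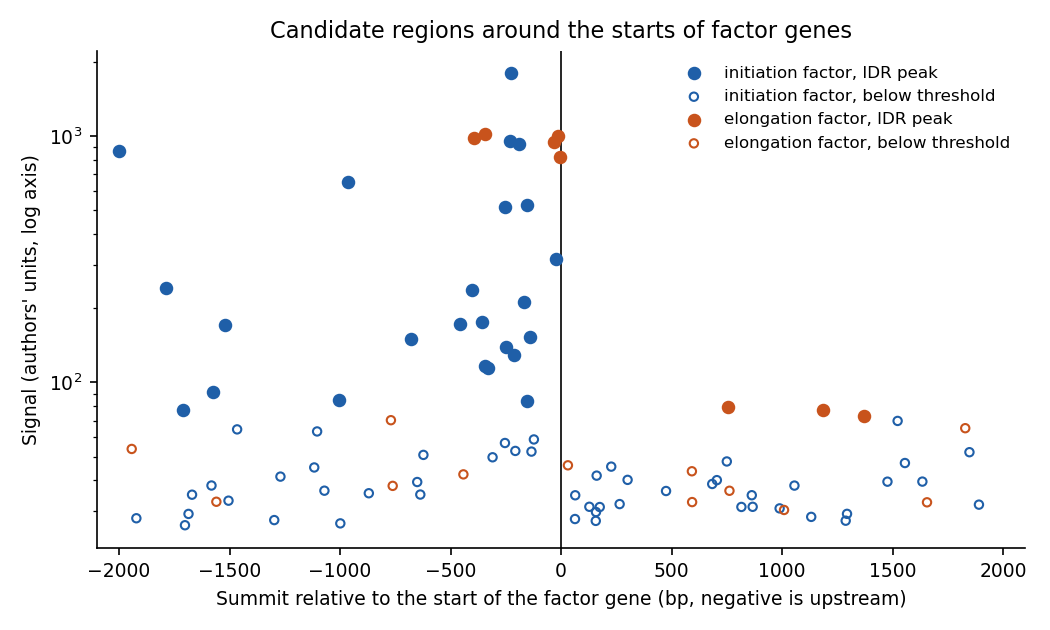
Signal on a log axis against the position of each summit relative to the start of the factor gene, in bp with negative values upstream; filled points are IDR peaks, open points candidates below the threshold. Peaks above 100 all lie upstream, most within 500 bp, and the 3 peaks downstream of a start are those inside the eEF1A genes, with signals from 73.2 to 79.1.

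Many of these promoters are shared with a neighbour. The strongest peak was upstream of starts on both strands, that is in a divergent arrangement, for 9 of 19 initiation and 4 of 5 elongation factor genes, 54.2% of the bound factor genes against 41.6% of all bound genes. Neighbours included the replication factor gene rfc-4, 146 bp from the peak of eef-1A.1, the aconitase gene aco-2 at eef-1B.1, ctf-4 at eef-1G, clsp-1 at eef-2 and the ESCRT gene vps-24, whose start lay 14 bp from the peak counted for eif-1. The factor gene was the only protein-coding gene starting within 2 kb of its strongest peak in 5 cases (eif-3.B, eif-3.C, eif-2Bdelta, ife-2 and eef-1A.2), 20.8% of the bound factor genes against 34.8% of all bound genes. A summit between a pair of starts cannot be given to either gene from these files.

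Of the 24 bound genes, 17 had a single peak, 6 had 2 and eef-1A.1 had 3. The 8 additional peaks were all weak, from 73.2 to 116.9. Candidates below the threshold were found 62 times within 2 kb of a member's start, with signals from 26.3 to 70.2 and a median of 37.2, close to the median of 34.7 over all 24440 such candidates. Counting these as well, 32 of 37 genes had a candidate, beside 65.2% of all protein-coding genes. The 5 genes without any were eif-2Balpha, eif-3.I, eif-3.J, eif-4A3 and ife-5, all named for initiation. The members were spread over the genome, with 9 of 12 bound on chromosome I, 5 of 11 on II, 3 of 5 on III, 1 of 2 on IV, 4 of 4 on V and 2 of 3 on X. Of all protein-coding genes, 32.3% were bound on I, 24.9% on II, 33.7% on III, 23.3% on IV, 17.0% on V and 28.4% on X.

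The replicates gave like values at strong peaks and differed at weak ones. Of the 32 peaks near factor genes 30 had a matching region in both replicates, and the exceptions were the peak of ifg-1 and the weaker peak of ife-3 (84.9). The median coefficient of variation was 10.005%, against 15.6% over the 5282 peaks of the whole list matched in both. Among the 12 factor gene peaks that belong to the 1112 strongest it was 6.86%, with the highest, 25.5%, at eif-2Bbeta, and among the 18 weaker ones 17.3%. Over the whole list the corresponding medians were 8.53% and 18.3%. Replicate 1 was higher at 22 of the 30 peaks, with a median ratio of replicate 1 to replicate 2 of 1.09, beside 1.12 over all peaks. More than a 2-fold difference was found at 4: the nearer peak of eif-6, eif-3.H, the nearer peak of eif-2Bgamma and the coding-sequence peak of eef-1A.2. As a description over 30 peaks of the same 2 libraries, Pearson's r was 0.986 and Spearman's rho 0.910.

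**Figure D5:**
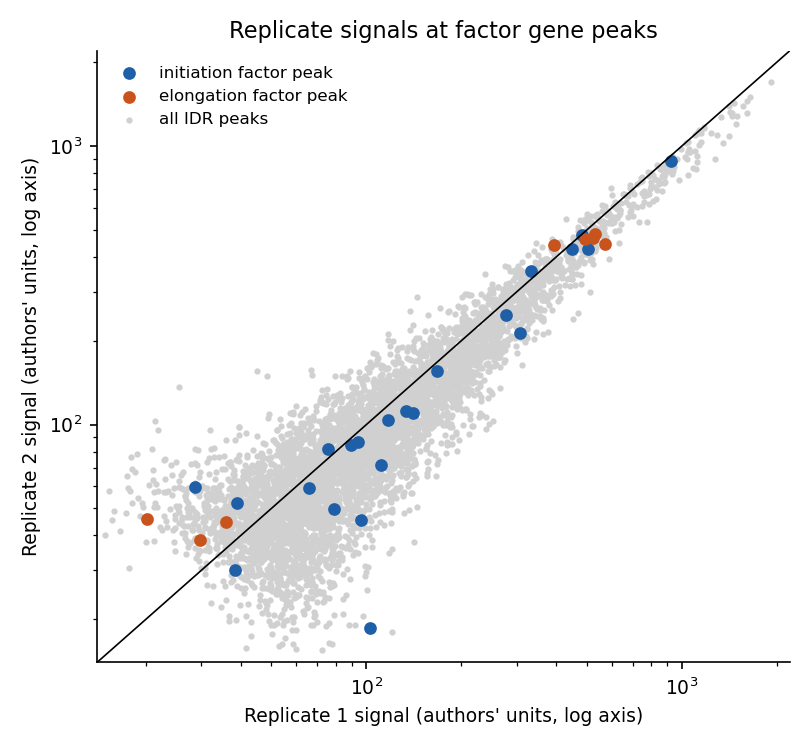
Signal in replicate 2 against replicate 1, both in the authors' units on log axes, for peaks near initiation factors, peaks near elongation factors and all IDR peaks, with the line of equal values. Among factor gene peaks, the strong ones lie close to the line, and the one farthest below it is the nearer peak of eif-6, with 103 in replicate 1 and 18.6 in replicate 2.

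The RUNX-type motif, even in its loose form with any base at N, was absent from the window of most of these peaks. Searched as TGNGGT on both strands within 50 bp of the summit, it occurred at 7 of the 32 peaks (21.9%, 95% Clopper-Pearson interval 9.28 to 40.0%). All peaks of the list held it at 15.2%, the 1112 strongest at 16.6%, candidates below the threshold at 12.05%, and windows of the same length centred 150 bp upstream of every protein-coding gene at 9.18%. Within 100 bp of the summit, the shares were 31.2% of the factor gene peaks, 25.3% of all peaks and 17.9% of the upstream windows. Within 25 bp, 6 of the 32 peaks held it (18.8%, 95% interval 7.21 to 36.4%). Beside these stood 8.62% of all peaks, 9.35% of the 1112 strongest and 4.39% of the upstream windows. No test was made of these differences. The 7 peaks were those of eif-3.D, eif-2alpha, eif-2beta, eef-1A.2 and eef-1B.1, the weaker peak of eif-1 and the peak at 755 bp in eef-1A.1. The stricter form TGTGGT, a subset of the first, was found at 1 of the 32 (3.12%), beside 5.76% of all peaks. The peaks near factor genes had a median GC content of 48.0% over the same windows, beside 46.5% for all peaks and 49.5% for the 1112 strongest, and a median width of 216 bp, as all peaks.

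Translation genes that go by other names were also examined, with no test against the factor genes. Of 11 genes for initiation, cap or poly(A) binding and their regulators, 8 were bound (72.7%), beside the same 25.4% of all protein-coding genes. The strongest were ifet-1, a repressor that binds eIF4E, with 1673 (858 and 835), the poly(A)-binding protein gene pab-2 with 362 (185 and 172), and the eIF2 kinase genes pek-1 with 312 (175 and 142) and gcn-2 with 295 (158 and 149). The summits near ifet-1, 506 bp upstream of its start, and gcn-2 lay nearer to the start of another gene. The ifet-1 peak also lay within 2 kb of a start of the ribosomal protein gene rps-1. The eIF4A gene inf-1 had only 110.9 (46.3 and 72.3), and gcn-1, mxt-1 and the eIF5B gene iffb-1 had no peak.

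Of 10 genes for elongation, release and the mitochondrial elongation factors, again 8 were bound (80.0%), beside 25.4% of all protein-coding genes. Here iff-2, an eIF5A gene, had 1513 (749 and 772) at 67 bp upstream, the mitochondrial gene gfm-1 1204 (604 and 608), the mitochondrial EF-Tu gene tufm-2 988 (536 and 456) and the release factor gene erfa-1 471 (226 and 251). The summits near tufm-2 and erfa-1 lay nearer to the start of another gene. The second eIF5A gene, iff-1, had 207 (97.2 and 99.0), and abce-1 and tufm-1 had no peak. Their median best signal was 457, between the 238 of the initiation and the 979 of the elongation factor genes. Cytoplasmic ribosomal protein genes, by the same rule, were bound at 74 of 78 (94.9%), with a median best signal of 526. By the nearest start it was 43 of 78 (55.1%), beside 17.2% of all protein-coding genes.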

How the data were processed

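The values come from narrowPeak region lists that the authors deposited. Used here were the 4 lists on ce11: IDR peaks, pooled candidates and the candidates of each replicate. Lists on ce10 were not used. Region signal, the authors' deposited value on a scale not stated, was used to rank and describe regions within a list. No aligner, peak caller or version is given in the labels. Depth is unknown, and intervals on shares of genes cover counting error only.

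The annotation was Ensembl release 115 (WBcel235, the ce11 sequence), and sequence came from the RefSeq genome of that build. A summit (region start plus summit offset) within 2 kb of any protein-coding transcript start counted for that gene. With ties, both genes were nearest. A peak matched a replicate where its summit lay inside a region there. Python 3.11.15 with scipy 1.17.1 was used, and the assignment, matching and motif steps were tested on simulated data. The members and lists were chosen with earlier results of these data known. The rule gave full values for the 20 bound members with the strongest peaks, and those of the 4 others were added. Of the other lists the 4 bound genes with the strongest peaks are named, with further names chosen after values were seen. Because the rule uses these values, no test was run. Alternatives changed the distance, the start, the list, the replicate, the matching rule and the motif window.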

Additional observations from a re-analysis of the deposited data

How the results depend on the processing

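Between 17 of 37 factor genes (stronger 2780 peaks, all protein-coding genes: 16.3%) and 28 of 37 (starts within 3 kb, all: 30.8%) were bound over the settings other than the whole candidate list. Elongation factor genes stayed at 5 or 6 of 6 throughout. Over the same settings the share of all protein-coding genes ran from 14.8% (starts within 500 bp) to 65.2% (whole candidate list). With the stronger 2780 peaks 12 of 31 initiation factor genes were bound, and the median best signal was 821 for bound factor genes and 521 for initiation factor genes, as weak peaks were left out. With every pooled candidate counted, 27 of 37 factor genes were bound by the nearest-start rule (all protein-coding genes: 54.4%), and the medians were 195 for all factor genes and 172 for initiation factor genes. With starts within 500 bp the initiation median was 195. From 1 replicate alone, medians were on that replicate's own scale: 156 to 168 for factor genes, 107 to 133 for initiation and 465 to 509 for elongation factor genes. The stricter TGTGGT gave 3.12% of peaks.

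The remaining 54 of 68 alternative values kept within 1.5 times (counts) or within the replicate spread or interval (other values). Requiring a matching region in each replicate (23 bound, all protein-coding genes: 24.7%) and requiring a summit upstream of the start (24, all: 21.5%) were chosen after seeing the data. The initiation median was below the elongation median in each of the 8 settings for which medians were computed, which leaves out these 2. The 8 settings reuse largely the same peaks, and the rule had used these values, so this count is no separate support for the order. No paired analysis was possible because there is 1 group. With 6 elongation factor genes and unknown depth, shares between the groups are not resolved.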

Other observations

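Aminoacyl-tRNA synthetase genes, which charge transfer RNAs with their amino acids, were bound at 17 of 31 (54.8%, 95% Clopper-Pearson interval 36.03 to 72.7%), beside 25.4% of all protein-coding genes. By the nearest start it was 12 of 31 (38.7%), beside 17.2% of all protein-coding genes. The strongest peaks were near ears-2 with 1043 (515 in replicate 1, 534 in replicate 2), fars-1 with 545 (279 and 265), iars-2 with 491 (236 and 252) and sars-2 with 373 (199.9 and 182). Of these only the peak of ears-2, 28 bp upstream, lay within 500 bp of the start. Those near fars-1 and iars-2 lay nearer to the start of another gene. The median best signal of the bound synthetase genes was 254, near the 238 of the initiation factor genes. The genes yars-2 and cif-1 share a peak of 294, at 9 bp and 1878 bp upstream of their starts.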
